A study of Mus musculus with 6 samples.

Results

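T-cell checkpoint and costimulation genes encode the receptors that restrain or help T-cell activation and the ligands that engage them on other cells. The 10 genes described here were fixed by name, 6 receptors (Pdcd1, Ctla4, Lag3, Havcr2, Tigit and Cd28) and 4 ligands (Cd274, Pdcd1lg2, Cd80 and Cd86), and all 10 were found among the 56884 genes counted in the series. They were compared between 3 control (WT) and 3 Dnmt3a knockout (KO) ectopic lesions of a mouse model of endometriosis, in which endometrium grows outside the uterus. WT lesions came from Dnmt3a f/f donors and KO lesions from Dnmt3a f/f:PR-Cre/+ donors, so that both groups carried the floxed allele and only the KO donors carried PR-Cre. PR-Cre is expressed from the progesterone receptor locus, and the deletion is therefore directed to progesterone receptor-expressing cells of the donor uterus. The recipients of both groups were wild-type females that carried an estrogen pellet, and immune cells that entered a lesion from the recipient had an intact Dnmt3a. The labels give 4 weeks as the time of both groups and no age, and they describe uterine fragments injected into the peritoneal cavity, whereas the methods describe fragments sutured to the mesentery and another day of collection. Each lesion was sequenced whole as 1 library, so the counts cover every cell type of the lesion, and fewer cells of a type and less RNA per cell cannot be told apart.

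A T cell needs a signal through its antigen receptor and a second one through CD28, which binds CD80 and CD86 on antigen-presenting cells. CTLA4 binds the same pair of ligands with higher affinity and inhibits. PD-1, encoded by Pdcd1, inhibits when bound by PD-L1 (Cd274) or PD-L2 (Pdcd1lg2), while LAG3, TIM-3 (Havcr2) and TIGIT are further inhibitory receptors of activated and exhausted T cells. PD-L1 is made by many hematopoietic and non-hematopoietic cells and is induced by interferon gamma, while PD-L2, CD80 and CD86 are found mainly on macrophages, dendritic cells and B cells, and TIM-3 is also found on macrophages and dendritic cells.

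Since Dnmt3a methylates cytosines in CpG dinucleotides, the CpG content of the members' promoters is shown with 3 sequences. RefSeq (GRCm38.p6) supplied the bases upstream of the annotated start for 7 members (Lag3, Cd28 and Cd86 had no entry), and the 250 bases before each start were read. Methylation was not measured in these lesions, so the sequences describe the genes and not their state. Immune cells from the recipient also had an intact Dnmt3a, as said above. Cd274 is shown as the member with the most CpG dinucleotides, at chr19:29367188-29367437 on the plus strand. Havcr2 is shown as the one with the fewest, at chr11:46454681-46454930 on the plus strand, and Tigit as the gene whose call was kept with any library left out, at chr16:43664185-43664434 on the minus strand. Capitals mark CpG dinucleotides.
Cd274: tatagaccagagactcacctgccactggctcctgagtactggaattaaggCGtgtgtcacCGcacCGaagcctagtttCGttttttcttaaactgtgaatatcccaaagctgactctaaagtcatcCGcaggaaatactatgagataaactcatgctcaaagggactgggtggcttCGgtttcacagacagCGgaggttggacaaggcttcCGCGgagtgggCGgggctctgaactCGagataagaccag
Havcr2: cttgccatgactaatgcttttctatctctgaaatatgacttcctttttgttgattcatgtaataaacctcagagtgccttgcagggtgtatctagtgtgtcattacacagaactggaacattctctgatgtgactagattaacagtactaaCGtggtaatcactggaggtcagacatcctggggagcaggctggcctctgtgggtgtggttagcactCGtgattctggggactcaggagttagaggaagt
Tigit: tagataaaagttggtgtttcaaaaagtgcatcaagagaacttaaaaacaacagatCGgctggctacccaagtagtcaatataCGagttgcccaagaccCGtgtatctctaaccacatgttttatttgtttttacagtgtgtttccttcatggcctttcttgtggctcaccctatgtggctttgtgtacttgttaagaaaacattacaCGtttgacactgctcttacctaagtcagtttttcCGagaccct
The Cd274 promoter held 11 CpG dinucleotides, more than 64.4% of the 32851 RefSeq promoters read in the same way, whose median was 6. The Ctla4 promoter held 7 and the Tigit promoter 5. Those of Pdcd1, Cd80 and Pdcd1lg2 held 3 each, and that of Havcr2 held 2, so that 5 of the 7 were under the median of all promoters. On both strands, the STAT motif TTCNNNGAA, which 7.02% of all promoters hold, was found in none of the 7 windows, and the AP-1 motif TGANTCA, which 6.75% hold, was found once each in Havcr2 and Cd80.  A match is a description of letters and not of a binding site, and no match says only that these letters are not in this window.

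The libraries held 45370342 to 57239184 counts. Dnmt3a itself was at 43.9 to 52.7 CPM (counts scaled to library size by TMM) in WT and 30.3 to 36.2 CPM in KO lesions, without overlap (log2 fold change -0.57, SE 0.14, adjusted p = 0.321 from edgeR). WT replicate 2 stood apart from the other WT libraries, with a summed level of 7 neutrophil markers of 9850 CPM against 214 and 479 CPM in WT replicates 3 and 1 and 37.2 to 184 CPM in KO. Summed T cell, B cell and macrophage markers were also highest in WT replicate 2 (129, 99.3 and 5910 CPM). They were at 49.5, 21.5 and 2120 CPM in WT replicate 1 and 47.3, 20.1 and 2600 CPM in WT replicate 3. Dendritic cell markers were not higher there (51.5 CPM against 58.2 and 56.0 CPM in WT replicates 1 and 3). WT replicates 1 and 3 carried 23300 and 27500 CPM of 6 skeletal muscle markers, against 2.72 CPM in WT replicate 2 and 5.92 to 14.0 CPM in KO. The defining markers of endometrial epithelium (1520 to 2290 CPM in WT, 1430 to 2790 CPM in KO, summed over 6 genes) and of endometrial stroma (3020 to 3540 CPM and 1610 to 4350 CPM, over 7 genes) were counted in every library, apart from 1 epithelial marker at 0 somewhere. T cell markers were counted in all 6 libraries, and their summed level over 13 genes was 47.3 to 129 CPM in WT and 7.83 to 33.9 CPM in KO.

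All 10 checkpoint and costimulation genes had a lower mean in Dnmt3a KO than in control lesions, and for Ctla4, Tigit, Havcr2 and Cd28 among the receptors and Cd274 and Pdcd1lg2 among the ligands the difference passed the threshold that the study used for its gene counts, an unadjusted p under 0.05 with a log2 fold change below -1 (edgeR's quasi-likelihood test over 18177 genes). In the same fit, 5.85% of all genes tested were lower and 3.1% higher by this threshold, and 0 of the 10 members were higher. The median log2 fold change of the 10 was -1.84, beside 0.01 over all genes tested. In 6 of the 10, every KO library lay below every WT library, as it did in 8.74% of all genes, and in none of the 10 did every KO library lie above, as it did in 10.7% of all genes. After Benjamini-Hochberg adjustment over all genes, 0 of the 10 had an adjusted p under 0.05 in edgeR (0.321 to 0.508, with 6 at an unadjusted p under 0.05), 0 in limma voom and 2 (Havcr2 and Tigit) in DESeq2, which gave Cd274 no p. Of all genes, 0.00550% passed that limit in edgeR, and 6.26% of those given an adjusted p passed it in DESeq2.

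WT replicate 2 had the highest value of all 10 members, from 1.31 times the mean of the other WT libraries in Lag3 to 17.5 times in Cd274. Without it all 10 log2 fold changes were still negative, with a median of -0.95, and 1 member (Tigit) instead of 6 was past the threshold, beside 5.86% of all genes. The number was 2 (Havcr2 and Tigit) without KO replicate 1 or KO replicate 2, where the share of all genes also went down, to 2.9% and 3.48%. Without KO replicate 3 the groups did not overlap for any of the 10, as for 22.3% of all genes. The lowest value was in KO replicate 1 for 4 members and in KO replicate 2 for 6. KO replicate 3 was the highest KO library for 8 members and lay above WT replicate 1 or 3 for 4 of them. By library, the median log2 difference of the 10 from their WT mean was -0.59 in WT replicate 1, 1.63 in replicate 2 and -0.92 in replicate 3, against -1.96 in both KO replicates 1 and 2 and -0.85 in KO replicate 3. The part that the neutrophil, T cell, B cell and macrophage marker levels given above have in these differences was not tested.

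**Figure D1:**
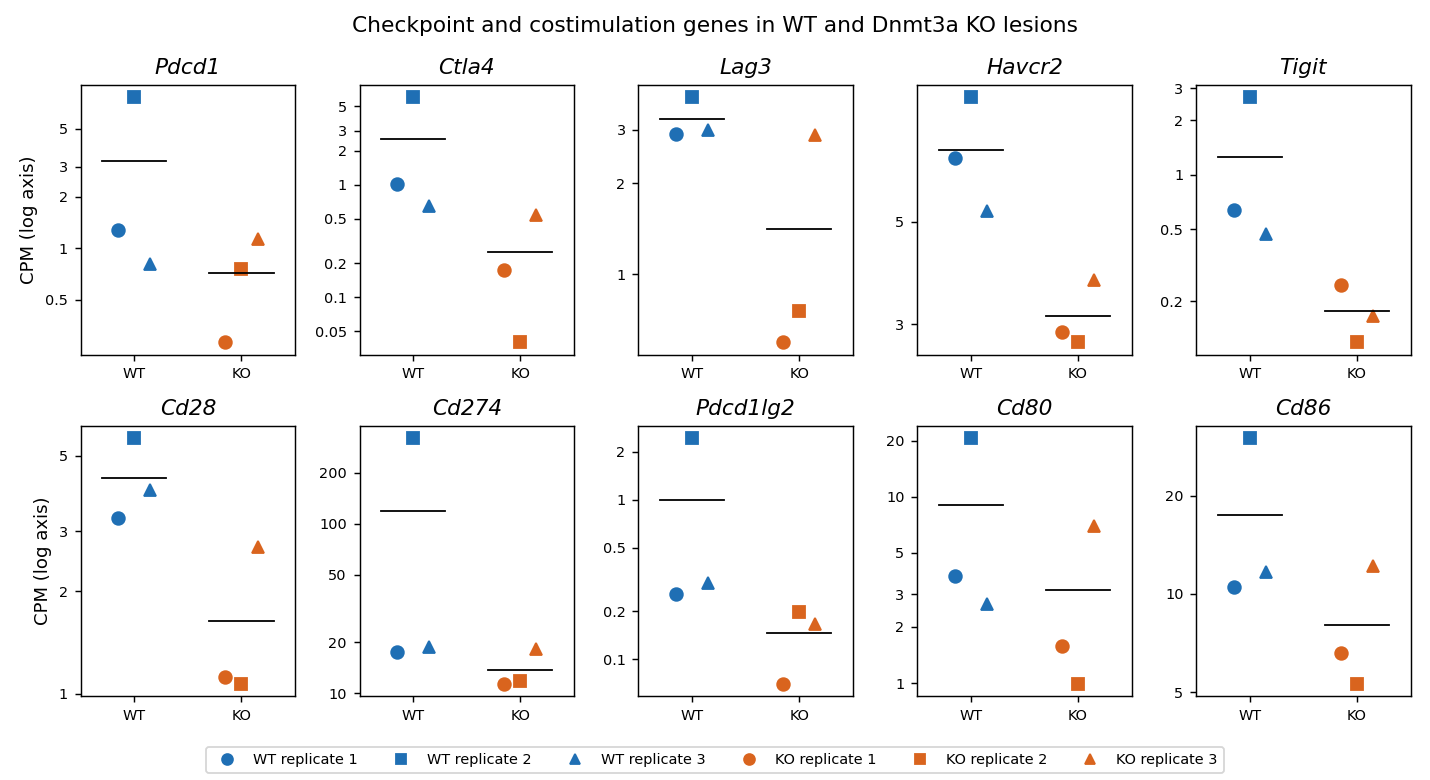
Level of each of the 10 genes in CPM (log axis, its range set for each gene) in the 3 WT (blue) and 3 KO (orange) lesions, with the marker shape giving the replicate and the bar the mean of the group. WT replicate 2 (blue square) is the highest point in all 10 panels, and the groups do not overlap for Ctla4, Lag3, Havcr2, Tigit, Cd28 and Pdcd1lg2.

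Among the inhibitory receptors, Ctla4 and Tigit had the lowest levels in KO lesions and the largest fold changes. Ctla4 (ENSMUSG00000026011.14, chromosome 1) was at 1.02, 5.99 and 0.641 CPM in the WT lesions and at 0.175, 0.0397 and 0.542 CPM in the KO lesions, always given in the order of replicates 1, 2 and 3. Every KO lesion lay below every WT lesion, though KO replicate 3 came close to WT replicate 3. The KO values rest on 10, 2 and 26 counts. The mean was 2.55 ± 2.98 CPM in WT and 0.252 ± 0.260 CPM in KO (SD, n = 3 each), with a log2 fold change of -3.33 (SE 1.23, unadjusted p = 0.035, adjusted p = 0.332 from edgeR). The log2 fold change was -1.72 without WT replicate 2, and the call was lost without WT replicate 2, KO replicate 1 (-3.12) or KO replicate 2 (-2.83).

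Tigit (ENSMUSG00000071552.6, chromosome 16), a receptor of T cells and NK cells for the nectin-family ligands PVR and NECTIN2, was at 0.640, 2.68 and 0.470 CPM in the WT lesions and at 0.246, 0.119 and 0.167 CPM in the KO lesions. The KO values, from 14, 6 and 8 counts, were all below the lowest WT value. The log2 fold change was -2.81 (SE 0.80, unadjusted p = 0.0129, adjusted p = 0.321 from edgeR), and it was -1.63 without WT replicate 2. Tigit was the single member that stayed past the threshold with each of the 6 libraries left out in turn.

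Havcr2 (ENSMUSG00000020399.15, chromosome 11) had a low spread in both groups. It was at 6.87, 9.30 and 5.28 CPM in the WT lesions and at 2.89, 2.74 and 3.73 CPM in the KO lesions, with no overlap. The mean was 7.15 ± 2.02 CPM in WT and 3.12 ± 0.532 CPM in KO (SD, n = 3 each), and the log2 fold change was -1.19 (SE 0.29, unadjusted p = 0.006, adjusted p = 0.321 from edgeR). This was the smallest unadjusted p of the 10 members. Without WT replicate 2 the log2 fold change was -0.96, which is inside the fold limit, with an unadjusted p of 0.0168 from edgeR.

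Pdcd1 and Lag3 did not pass the threshold in edgeR with all 6 libraries. Pdcd1 (ENSMUSG00000026285.9, chromosome 1), which encodes PD-1, was at 1.28, 7.65 and 0.812 CPM in the WT lesions and at 0.281, 0.755 and 1.13 CPM in the KO lesions. WT replicate 2 was far above the others, and KO replicate 3 lay above WT replicate 3. Its log2 fold change was -2.17 (SE 1.01, unadjusted p = 0.0738, adjusted p = 0.362 from edgeR) and -0.54 without WT replicate 2. Without WT replicate 3 it passed, at -2.65, as it did in DESeq2 (-2.19). Lag3 (ENSMUSG00000030124.3, chromosome 6), which encodes a receptor for MHC class II, was at 2.90, 3.85 and 2.99 CPM in the WT lesions and at 0.596, 0.755 and 2.88 CPM in the KO lesions. The groups did not overlap, but KO replicate 3 was just below the lowest WT lesion while the other KO lesions were several times lower. The log2 fold change was -1.21 (SE 0.65, unadjusted p = 0.112, adjusted p = 0.402 from edgeR), -1.06 without WT replicate 2 and -2.26, past the threshold, without KO replicate 3. It also passed in limma voom (-1.96).

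Cd28 (ENSMUSG00000026012.3, chromosome 1), the costimulatory receptor of the group, moved in the same direction as the inhibitory ones. It was at 3.29, 5.63 and 3.97 CPM in the WT lesions and at 1.12, 1.07 and 2.69 CPM in the KO lesions, with no overlap. The mean was 4.30 ± 1.20 CPM in WT and 1.63 ± 0.919 CPM in KO (SD, n = 3 each), and the log2 fold change was -1.40 (SE 0.46, unadjusted p = 0.0236, adjusted p = 0.328 from edgeR). It was -1.16 without WT replicate 2, and the call was lost without WT replicate 2 or 3 or KO replicate 1 or 2, where the log2 fold change was -1.47 to -1.16.

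Of the ligands, Cd274 had the largest fold change, and it rested on 1 lesion. Cd274 (ENSMUSG00000016496.8, chromosome 19), which encodes PD-L1, was at 17.6, 318 and 18.8 CPM in the WT lesions and at 11.4, 11.8 and 18.2 CPM in the KO lesions. WT replicate 2, with 14138 counts, stood 17.5 times above the mean of the other WT lesions, and KO replicate 3 lay above WT replicate 1. The log2 fold change was -3.10 (SE 1.24, unadjusted p = 0.0468, adjusted p = 0.336 from edgeR). Without WT replicate 2 it was -0.39 (unadjusted p = 0.175 from edgeR), and the call was also lost without any of the KO lesions and in limma voom (-0.88). The summed neutrophil, T cell, B cell and macrophage markers were highest in the same library, and their part in the Cd274 value was not tested.

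Pdcd1lg2 (ENSMUSG00000016498.11), the gene of PD-L2 on the same chromosome, was the lowest of the ligands. It was at 0.256, 2.43 and 0.299 CPM in the WT lesions and at 0.0702, 0.199 and 0.167 CPM in the KO lesions, without overlap. These values rest on 12, 108 and 14 counts in WT and 4, 10 and 8 counts in KO. The log2 fold change was -2.76 (SE 1.06, unadjusted p = 0.0403, adjusted p = 0.332 from edgeR), -0.93 without WT replicate 2, and the call was lost without WT replicate 2 or any of the KO lesions and in limma voom (-1.43).

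Cd80 and Cd86, the ligands of CD28 and CTLA4, did not pass the threshold in edgeR with all 6 libraries. Cd80 (ENSMUSG00000075122.6, chromosome 16) was at 3.74, 20.6 and 2.65 CPM in the WT lesions and at 1.58, 0.993 and 6.96 CPM in the KO lesions. KO replicate 3 was above WT replicates 1 and 3, and the log2 fold change of -1.50 (SE 1.07, unadjusted p = 0.212, adjusted p = 0.508 from edgeR) was -0.01 without WT replicate 2. Cd86 (ENSMUSG00000022901.14, chromosome 16) was at 10.5, 29.9 and 11.7 CPM in the WT lesions and at 6.60, 5.32 and 12.2 CPM in the KO lesions. Again KO replicate 3 was above WT replicates 1 and 3. The log2 fold change was -1.11 (SE 0.52, unadjusted p = 0.0785, adjusted p = 0.366 from edgeR), -0.46 without WT replicate 2 and -1.54, past the threshold, without KO replicate 3. It also passed in DESeq2 (-1.12).

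**Figure D2:**
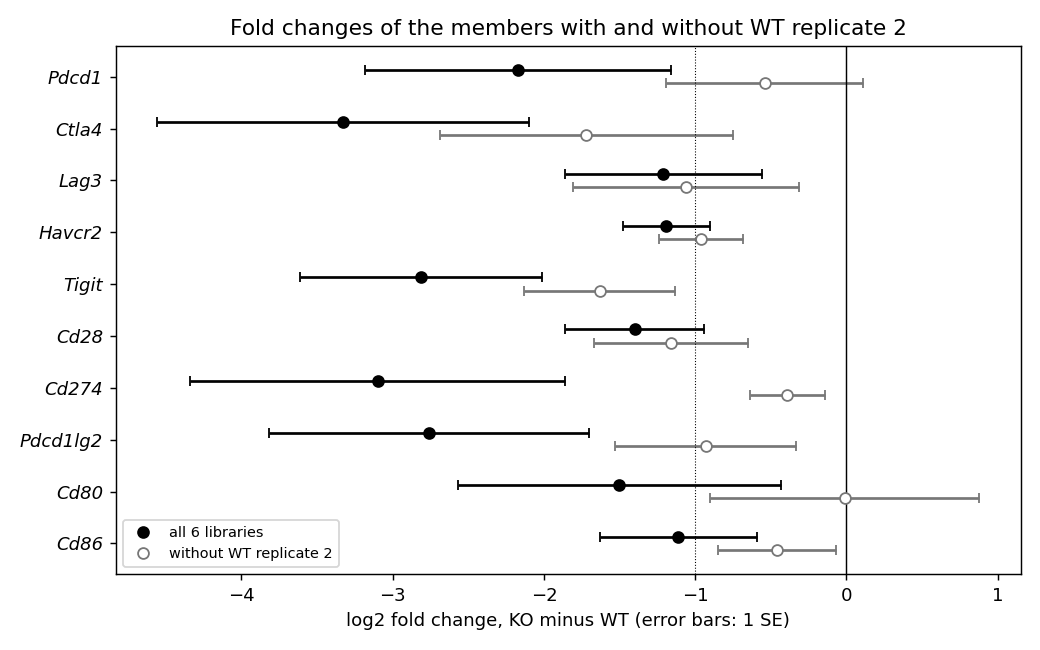
Log2 fold change (KO minus WT) of the 10 genes from edgeR with all 6 libraries (filled points) and without WT replicate 2 (open points), with bars of 1 SE. The dotted line marks the fold limit of -1. Every point is below 0, and those of Cd274 and Cd80 come closest to 0 without WT replicate 2, at -0.39 and -0.01.

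Scaled to the length of the gene's exons, Cd274 was the most abundant member in all 6 libraries, with a mean of 32.6 CPM per kb in WT and 3.81 CPM per kb in KO. Cd86 followed with 4.74 and 2.20 CPM per kb, then Havcr2 (2.63 and 1.15) and Cd80 (2.43 and 0.858). In WT the receptors came next, in the order Pdcd1 (1.68 CPM per kb), Lag3 (1.54), Tigit (1.37), Ctla4 (1.09) and Cd28 (0.702), and Pdcd1lg2 was the lowest at 0.508. The ranges of all 9 pairs of neighbours in this order overlapped. In KO the order of the receptors after Cd80 was Lag3 (0.668 CPM per kb), Pdcd1 (0.373), Cd28 (0.266), Tigit (0.193) and Ctla4 (0.108), with Pdcd1lg2 again the lowest at 0.0740. Here 8 of the 9 pairs overlapped, and Cd86 and Havcr2 did not.

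Ligands were set beside their receptors within each library. For the CD28 family, Cd80 and Cd86 summed to 3.87, 13.7 and 3.92 CPM per kb in WT and 2.23, 1.72 and 5.21 in KO lesions, and Cd28 and Ctla4 summed to 0.977, 3.49 and 0.924 CPM per kb in WT and 0.259, 0.192 and 0.672 in KO lesions. The ratio of ligands to receptors was 3.96, 3.93 and 4.25 in WT and 8.61, 8.96 and 7.76 in KO lesions. The ratio was thus close to constant within each group, although the sums varied several fold among the lesions, and it was higher in every KO lesion than in any WT lesion. The mean log2 ratio was 2.02 ± 0.06 in WT and 3.08 ± 0.11 in KO (SD, n = 3 each), a difference of 1.06 (p = 0.1 by an exact permutation test, two-sided, which cannot go lower with 3 lesions against 3, and adjusted p = 0.2 over 2 ratios). With any 1 library left out the difference was 1.02 to 1.12, and without the scaling to length it was 0.75. Single pairs, chosen after the values were seen, were less even. Cd86 to Cd28 was 5.32, 8.88 and 4.94 in WT and 9.82, 8.30 and 7.60 in KO, with overlap. Cd80 to Ctla4 was 2.29, 2.16 and 2.60 in WT and 5.66, 15.7 and 8.08 in KO, without overlap, and Cd86 to Ctla4 ran from 3.18 to 11.7 in WT and from 14.3 to 85.3 in KO. The highest of these values rest on the 2 counts of Ctla4 in KO replicate 2.

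For PD-1 and its main ligand the ratio of Cd274 to Pdcd1 was 7.31, 22.2 and 12.3 in WT and 21.7, 8.36 and 8.60 in KO lesions. The groups overlapped over nearly their whole range, with a log2 difference of -0.12 (p = 0.9 by the exact permutation test, adjusted p = 0.9 over 2 ratios), which was -0.57 to 0.29 with 1 library left out and turned positive without WT replicate 2 (0.29), KO replicate 2 (0.12) or KO replicate 3 (0.10).

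Each member was also expressed relative to markers of a single cell type that can carry it, T cells for 5 members and macrophages for the others, in 10 comparisons. The further cells named above as carriers of Havcr2 and of the ligands were not used, so these ratios do not adjust for them. Relative to the summed CD3 chains (Cd3d, Cd3e and Cd3g), which mark T cells, Pdcd1 differed by 0.19 on the log2 scale (exact permutation p = 0.8), Lag3 by 0.32 (exact p = 0.5), Cd28 by 0.38 (exact p = 0.6) and Tigit by -0.57 (exact p = 0.5), all with overlapping groups. Ctla4 was 0.0896, 0.174 and 0.0570 of the CD3 level in WT and 0.0439, 0.0172 and 0.0565 in KO lesions. It was the only one of the 5 without overlap, by a narrow margin between WT replicate 3 and KO replicate 3, and the log2 difference was -1.46 (exact permutation p = 0.1, adjusted p = 0.25 over the 10). Relative to all 13 T cell markers in place of the CD3 chains it was -1.17 (exact p = 0.3) and the groups overlapped, and without KO replicate 2 it was -0.95. Relative to CD3, the differences of Pdcd1, Lag3 and Cd28 were thus positive, while their log2 fold changes in CPM were negative. The sign of the first turned without WT replicate 3 or KO replicate 2 (-0.18 and -0.42) and that of Lag3 without WT replicate 2 (-0.09). The difference of Cd28 was 0.06 without WT replicate 2, and that of Tigit was -0.01 without KO replicate 3.

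Relative to the macrophage markers Adgre1, Cd68 and Fcgr1, Cd86 was 0.0575, 0.0571 and 0.0531 in WT and 0.0329, 0.0359 and 0.0475 in KO lesions. The 3 WT values lay close together and above all KO values, and the log2 difference was -0.55 (exact permutation p = 0.1, adjusted p = 0.25). Cd274 was 0.0966, 0.608 and 0.0849 in WT and 0.0571, 0.0798 and 0.0707 in KO lesions, with a log2 difference of -1.32, and Pdcd1lg2 differed by -1.62 (exact permutation p = 0.1 and adjusted p = 0.25 for each). In both the groups did not overlap. Without WT replicate 2 the differences were -0.40 for Cd274 and -1.04 for Pdcd1lg2. Relative to all 10 macrophage markers the groups overlapped for both (-1.18, exact p = 0.2, and -1.49, exact p = 0.3), while for Cd86 the difference was -0.41 (exact p = 0.1). Havcr2 (-0.68, exact p = 0.2, and -0.39 without WT replicate 1) and Cd80 (-0.92, exact p = 0.3, and from -1.55 to -0.48 with 1 library left out) overlapped.

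**Figure D3:**
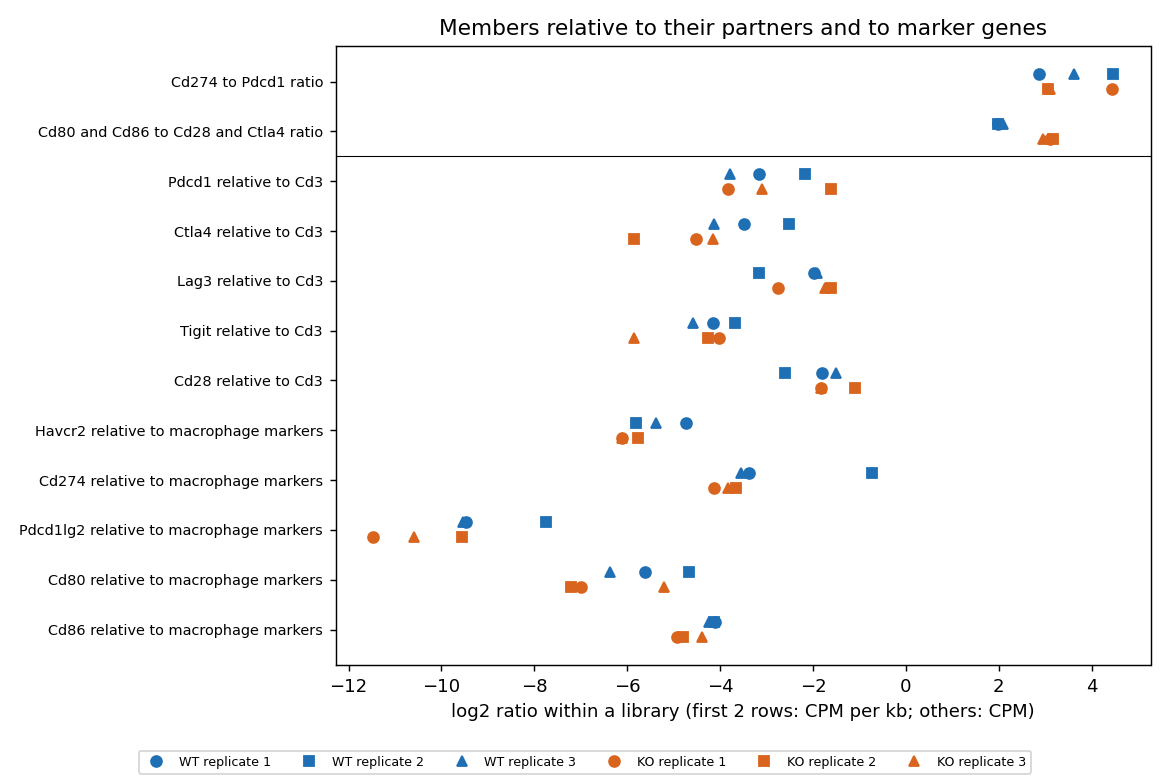
Log2 ratios within each library for the ligand to receptor pairs (CPM per kb, above the line) and for each member relative to CD3 chains or macrophage markers (CPM, below the line), in WT (blue) and KO (orange) lesions, with marker shapes giving the replicate. The ratio of Cd80 and Cd86 to Cd28 and Ctla4 shows the tightest groups, at 2.02 ± 0.06 in WT and 3.08 ± 0.11 in KO.

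Some other receptors and ligands of the same kind were lower as well. Of 14 further genes grouped as checkpoint and costimulation receptors, a list that also holds the ligand of CD40, 13 were tested. By the same threshold 5 were lower and 0 higher, with a median log2 fold change of -1.46, which was -0.67 without WT replicate 2. They included Icos, a costimulatory relative of CD28, at 4.23, 13.9 and 3.67 CPM in the WT lesions and at 0.421, 0.318 and 2.38 CPM in the KO lesions (log2 fold change -2.81). Cd226, which competes with TIGIT for ligands, had a log2 fold change of -1.80 and Cd96, of the same family, -1.57. Cd27 was not tested, being too low. No receptor of this list was past the threshold without WT replicate 2, KO replicate 1 or KO replicate 2. Of 15 further genes grouped as ligands, among them the receptors Cd40 and Tnfrsf14, 13 were tested, and 3 were lower and 0 higher. The median of this mixed list was 0.02, or -0.44 to 0.07 with 1 library left out. In limma voom and without WT replicate 2, 1 ligand was higher. The lower ones were Cd40, a receptor by which antigen-presenting cells take help from T cells (log2 fold change -1.84), Tnfsf9, the ligand of 4-1BB (-2.39), and Tnfrsf14, the BTLA partner HVEM (-1.04). The 3 became 0 without KO replicate 1 and 1 without KO replicate 2. Tnfsf18 and Cd70 were too low to test.

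Of 16 genes of T-cell receptor and CD28 signalling 15 were tested, 6 were lower and 0 higher, with a median of -1.49, which was -0.81 without WT replicate 2. The kinase Lck, which starts signalling at the receptor, was at 5.06, 13.1 and 7.20 CPM in the WT lesions and at 3.63, 2.50 and 4.17 CPM in the KO lesions (log2 fold change -1.30), and the adaptor Lat had a log2 fold change of -1.69. Prkcq, a kinase downstream of CD28, was at 30.2, 4.16 and 25.9 CPM in the WT lesions and at 1.47 to 2.77 CPM in the KO lesions (log2 fold change -3.31), and its high values were in the WT libraries with skeletal muscle markers. The number of lower genes was 1 without WT replicate 2, 2 without KO replicate 1 and 1 without KO replicate 2, and Il2 was too low to test. Among 10 exhaustion-associated transcription factors, of which 9 were tested, 3 were lower and 0 higher (median -1.02, and -0.59 without WT replicate 2). They were Nr4a1 and Nr4a3, immediate-early nuclear receptors that antigen receptor signals induce in T cells and other signals in many cell types, and the AP-1 family factor Batf. Nr4a1 was at 43.9, 100 and 29.6 CPM in the WT lesions and at 4.74, 6.20 and 10.2 CPM in the KO lesions (log2 fold change -3.04), Nr4a3 had a log2 fold change of -2.92 and Batf one of -2.31, which was -0.59 without WT replicate 2. Without WT replicate 3, 5 factors were lower. In the interferon gamma axis, which induces PD-L1, 0 of 6 tested genes were lower or higher in edgeR, limma voom or DESeq2 (median -0.28, and -0.14 without WT replicate 2, with 2 at an unadjusted p under 0.05 in edgeR), 1 was lower when WT replicate 1 or 3 or KO replicate 3 was left out, and Ifng itself was too low to test, with at most 0.225 CPM.

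Marker lists of the cells that carry these genes were measured in the same libraries. Of 13 T cell markers, 11 were lower and 0 higher, with a median of -2.05, which lies beyond the median of -1.79 of the 6 receptors. Without WT replicate 2 these medians were -1.50 and -1.11. Of these markers 4 were lower without WT replicate 2, KO replicate 1 or KO replicate 2. Cd8b1, a chain of the CD8 co-receptor, was at 1.90, 2.34 and 1.96 CPM in the WT lesions and at 0.281, 0.477 and 0.708 CPM in the KO lesions (log2 fold change -2.08). Of 6 regulatory T cell markers 5 were tested and 2 were lower, the IL-2 receptor chain Il2ra, which is also in the signalling list (-1.59), and Foxp3, the lineage factor of regulatory T cells. Foxp3 was at 1.15, 3.24 and 0.683 CPM in the WT lesions and at 0.175, 0.0397 and 0.625 CPM in the KO lesions (log2 fold change -2.59). It was lowest in KO replicate 2 and highest in WT replicate 2, as were 6 of the 10 members. Of 7 NK cell markers 2 were lower (Gzmb at -2.49 and Klrk1 at -1.06), and of 6 B cell markers 4 were lower. The medians were -0.27 for regulatory T cell, -0.34 for NK cell and -3.17 for B cell markers, and with 1 library left out they ran from -1.42 to -0.24, from -0.65 to -0.14 and from -3.66 to -1.29, the last without WT replicate 2. Without WT replicate 2, these numbers were 0 for regulatory T cells, 1 for NK cells and 2 for B cells, and without KO replicate 1 they were 0, 1 and 1. The regulatory T cell number was also 0 without WT replicate 1 or KO replicate 2, the NK cell number 0 without KO replicate 2 and 1 without KO replicate 3, and the B cell number 2 without KO replicate 3.

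Of 10 macrophage markers, 0 were lower or higher in edgeR (0 at an unadjusted p under 0.05, 5 lower without KO replicate 3, 1 lower in DESeq2 and 2 in limma voom), at a median of -0.76 beside -2.13 for the 4 ligands. Without WT replicate 2 these medians were close to each other, at -0.26 and -0.43, and in limma voom they were -0.59 and -1.04. Their summed level was 2120 to 5910 CPM in the WT lesions and 1500 to 3090 CPM in the KO lesions, with overlap. Of 8 dendritic cell markers, with a median of -0.51 (-0.98 to -0.25 with 1 library left out), 1 was lower, Ccr7, the lymph node homing receptor (-1.96), and the summed level of that list was 51.5 to 58.2 CPM in the WT lesions and 37.6 to 62.1 CPM in the KO lesions. Of 7 neutrophil markers 3 were lower (S100a9 at -6.20, S100a8 at -5.82 and Csf3r at -4.09, with a median of the list of -3.66, and of -1.01 without WT replicate 2). Both the dendritic cell and the neutrophil number were 0 without WT replicate 2, KO replicate 1 or KO replicate 2, the former was 3 without KO replicate 3, and DESeq2 gave 0 of the 7 neutrophil markers a p. Of 6 epithelial markers 0 passed in edgeR, limma voom or DESeq2 (median 0.46, 0 at an unadjusted p under 0.05 in edgeR), and of 7 stromal markers Hoxa11 (1.05) and Esr1 (1.13) were higher and 0 lower. Neither of the stromal ones was past the threshold without WT replicate 2 or KO replicate 1, 1 of them was without WT replicate 1 or KO replicate 2, and 2 other stromal markers were lower without KO replicate 3. The 4 muscle markers that were tested were all lower. The part of these cell type markers in the values of the 10 members was not tested beyond the ratios given above.

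**Figure D4:**
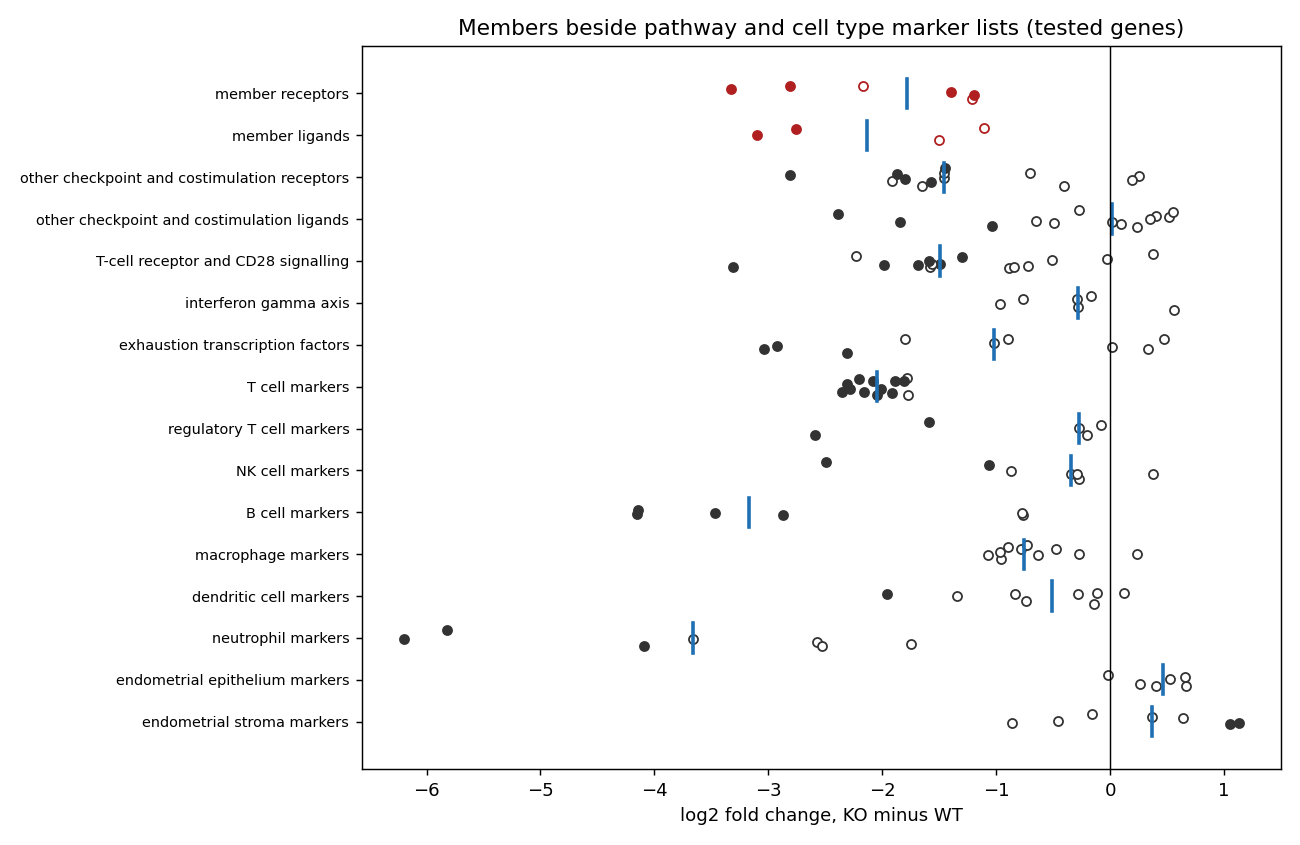
Log2 fold change (KO minus WT) of each tested gene of the members (red) and of the pathway and marker lists (black), with filled points for genes past the threshold (unadjusted p under 0.05 and log2 fold change beyond 1 in either direction) and a blue line at the median of each list. The 4 skeletal muscle markers tested, at -14.03 to -9.57, are off the scale and not drawn. T cell markers, with a median of -2.05, lie in the range of the member receptors, while the median of the macrophage markers is -0.76, and without WT replicate 2 it is -0.26 beside -0.43 for the member ligands.

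For 3 members the genes with the most similar pattern were sought over 15152 genes with a mean of at least 1 CPM, by Pearson's r of log2 CPM over the 6 libraries. These values are a description, and the points share their library and depth. Pdcd1 was closest to Emsy (r = 0.997), Trim5 (0.995) and Tgm1 (0.994), and without WT replicate 2 the r values were 0.985, 0.988 and 0.973. Cd274 was closest to Snx18 (0.998), Zswim6 (0.998) and Malt1 (0.997), and without WT replicate 2 these were 0.936, 0.930 and 0.894. Cd86 was closest to Cfp (0.999), Aoah (0.999) and March1 (0.999), with r values of 0.999, 0.999 and 0.998 without WT replicate 2. Aoah, a lipase of myeloid cells that inactivates endotoxin, was at 16.3, 63.6 and 18.8 CPM in the WT lesions and at 9.09, 7.21 and 19.0 CPM in the KO lesions, and March1 encodes a ubiquitin ligase that removes CD86 and MHC class II from the cell surface. These genes were picked for their r over the same libraries, so the values without WT replicate 2 are no independent check.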

How the data were processed

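RNA from 3 WT and 3 KO ectopic lesions was sequenced as stranded messenger RNA libraries. Whole-number counts per gene were deposited by the authors, neither normalized nor pooled. The submitters' notes name Trimmomatic, featureCounts and DESeq2 without versions and build GRCm39, whereas the methods name GRCm38. The aligner and annotation release are not given in the sources used here, so only chromosomes are given for genes, and strand use in counting is unknown. Of 56884 gene IDs, 51948 matched GENCODE M21 without their version, which supplied symbols and exon lengths.

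Counts were fitted with edgeR 4.0.16 in R 4.3.3 (filterByExpr, 18177 genes, TMM factors 0.962 to 1.05, quasi-likelihood test of KO against WT without covariates, common biological coefficient of variation 44.2%). SE is the log2 fold change divided by the root of the F statistic, and adjusted p-values are Benjamini-Hochberg over all genes tested. Ratios were compared by exact permutation tests (scipy 1.17.1). The methods give 3 donors per group, and p-values measure the spread between these lesions. Counts of 1 to 20 were even numbers for 89.2% to 90.6% of genes, and 50 of the 60 member counts were even, the cause of which was not tested. A fit with counts divided by 2 was therefore added after seeing the data. Counts come without molecular identifiers.

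The members and gene lists were chosen with earlier results of these data known. The named genes are all members, up to 3 genes past the threshold with the smallest p per list, the 3 genes most like each of Pdcd1, Cd274 and Cd86, and Dnmt3a. Listed genes too low to test and the markers used in the ratios are named as well. On simulated data for KO against WT with 18177 genes, 95% of 200 genes changed by 3 (log2) were called at the unadjusted threshold and 2.6% of unchanged genes. The simulation held no outlying library like WT replicate 2, and the median log2 fold change of the members was -1.84. The share recovered therefore does not carry over to the members. Alternatives were DESeq2 size factors, upper quartile scaling, no filter, a minimum of 10 counts per library, DESeq2 1.42.0, limma 3.58.1 voom, a replicate block and each library left out.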

Additional observations from a re-analysis of the deposited data

How the results depend on the processing

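Over 135 values of single members under the alternatives, all 135 log2 fold changes were below 0, and 108 kept their side of the threshold. The number of members lower in KO was 3 of the 7 still tested with at least 10 counts in every library, where Ctla4, Tigit and Pdcd1lg2 were not tested, 7 with DESeq2 (Pdcd1 and Cd86 gained), 5 with limma voom (Lag3 gained, Cd274 and Pdcd1lg2 lost) and 1 (without WT replicate 2) to 6 with 1 library left out, being 2 without KO replicate 1 or 2. Of all genes tested, 5.17% were lower with at least 10 counts, 7.43% with DESeq2 and 8.38% with limma voom. With 1 library left out the share was 2.9% to 8.66%, against 5.85% in the main fit. With DESeq2, 2 members had an adjusted p under 0.05 (Havcr2, 0.00563, and Tigit, 0.0238), Cd274 received none, and 1100 genes passed in all, against 1 in edgeR and 398 in edgeR without WT replicate 2. Members whose groups did not overlap numbered 6 or 7 with 1 library other than KO replicate 3 left out, beside 11.2% to 17.8% of all genes. Without KO replicate 3 they numbered 10, where 22.3% of all genes did not overlap in that direction. Over all genes, leaving out KO replicate 1, 2 or 3 gave 551, 658 or 1650 lower ones. Upper quartile scaling moved the median of all genes to 0.11, left 5 members lower and gave 907 lower and 716 higher genes, or 55.9% lower against 65.4%. The log2 difference of the Cd274 to Pdcd1 ratio was -0.57 to 0.29 with 1 library left out, that of Pdcd1 relative to CD3 was -0.42 to 0.69 and that of Lag3 relative to CD3 was -0.09 to 0.68. The replicate numbers did not pair the lesions (correlations of deviations 0.03, -0.15 and -0.20), and with the replicate block 4 members (Havcr2, Tigit, Cd28 and Pdcd1lg2) were lower, with a median of -1.58, and 573 genes were lower and 372 higher. With counts divided by 2, 5 members were lower, beside 5.68% of all genes, and Pdcd1lg2 was not tested. Other alternatives of these results changed no direction, and the causes were not tested. Depth limits Ctla4, Tigit and Pdcd1lg2, with as few as 2 to 6 counts in a KO library.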
